A study of Caenorhabditis elegans with 2 samples.

Results

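The arms of the Caenorhabditis elegans autosomes II to V are described here as places of chromatin recovered with the homeobox protein CEH-62. An entry is a region with its own summit in a deposited list that mixes peaks with background, and it was placed on an arm when its summit lay in the first or the last of 3 equal parts of its chromosome by length in the ce11 build. The rule uses position alone. It took 7612 of the 11511 entries on II to V in the list called on both replicates together, out of 16733 entries in that list. The other 3899 entries on these chromosomes lay in the middle parts, called centres. Chromatin immunoprecipitation sequencing (ChIP-seq) was performed on whole L4 larvae of mixed sex of strain OP416 (unc-119(tm4063) III; wgIs416), which express CEH-62 (R06F6.6) with a C-terminal GFP-FLAG tag from a stably inserted transgene. Per the labels males and females were pooled, and both replicates carry the transgene and the unc-119 allele. The 2 biological replicates are of this single condition and were called against 1 control, so there were no groups of samples to compare and no test is given. The replicate lists each held 30000 entries, of which 13730 in replicate 1 and 13344 in replicate 2 lay on the arms of II to V.

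Worm autosomes have no single centromere, and their arms and centres differ in content. The centres are known for conserved, broadly expressed genes and little meiotic recombination, and the arms for more recombination, more repeats, heterochromatin marks and large young gene families such as chemoreceptors, F-box proteins and C-type lectins. Homeobox proteins bind DNA through a homeodomain, which often prefers a TAAT core.

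The 8 sequences below are the strongest entry of each arm, shown because each carries the highest signal on its arm. Each is the plus strand within 100 bp of the summit, read 5′ to 3′ from the RefSeq copy of WBcel235, the assembly also named ce11, and is named by the nearest start of a protein-coding gene. Capitals mark TAAT or its reverse complement ATTA. The window at dcaf-13 is shorter, since it was ended at an untranslated exon. In order they are the left and right arms of II, III, IV and V.
dcaf-13, chrII:4424744-4424894: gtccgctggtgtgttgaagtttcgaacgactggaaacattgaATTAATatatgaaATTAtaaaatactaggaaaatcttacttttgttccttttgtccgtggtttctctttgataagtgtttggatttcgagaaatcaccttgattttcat
cdc-48.1, chrII:10563479-10563679: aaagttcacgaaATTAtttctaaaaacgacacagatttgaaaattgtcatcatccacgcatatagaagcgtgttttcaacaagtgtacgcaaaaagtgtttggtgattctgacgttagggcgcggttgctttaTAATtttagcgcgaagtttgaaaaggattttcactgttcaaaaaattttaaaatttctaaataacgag
Y71H2AM.20, chrIII:2785970-2786170: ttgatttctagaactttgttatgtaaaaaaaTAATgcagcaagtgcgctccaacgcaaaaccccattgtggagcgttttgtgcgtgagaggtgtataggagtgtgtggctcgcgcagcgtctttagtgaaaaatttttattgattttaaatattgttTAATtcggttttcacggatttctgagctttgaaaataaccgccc
tasp-1, chrIII:10759065-10759265: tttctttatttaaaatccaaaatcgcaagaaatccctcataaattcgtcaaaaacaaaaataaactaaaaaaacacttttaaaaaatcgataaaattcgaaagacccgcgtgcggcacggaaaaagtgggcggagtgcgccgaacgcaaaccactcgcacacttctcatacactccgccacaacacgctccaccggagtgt
rpl-15, chrIV:654743-654943: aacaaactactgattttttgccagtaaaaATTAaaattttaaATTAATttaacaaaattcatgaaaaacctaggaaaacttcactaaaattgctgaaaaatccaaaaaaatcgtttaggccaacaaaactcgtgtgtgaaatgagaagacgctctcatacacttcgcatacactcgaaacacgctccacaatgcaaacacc
eelo-2, chrIV:17249857-17250057: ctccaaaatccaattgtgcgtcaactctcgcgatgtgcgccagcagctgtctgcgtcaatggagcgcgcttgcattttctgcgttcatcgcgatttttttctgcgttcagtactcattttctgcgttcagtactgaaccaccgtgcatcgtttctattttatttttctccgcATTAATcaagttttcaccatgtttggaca
W06H8.6, chrV:6227638-6227838: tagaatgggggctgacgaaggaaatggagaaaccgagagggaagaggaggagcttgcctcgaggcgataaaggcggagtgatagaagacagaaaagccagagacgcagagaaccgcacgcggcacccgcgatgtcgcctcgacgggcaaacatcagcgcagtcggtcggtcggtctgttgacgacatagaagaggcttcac
lsm-5, chrV:15569971-15570171: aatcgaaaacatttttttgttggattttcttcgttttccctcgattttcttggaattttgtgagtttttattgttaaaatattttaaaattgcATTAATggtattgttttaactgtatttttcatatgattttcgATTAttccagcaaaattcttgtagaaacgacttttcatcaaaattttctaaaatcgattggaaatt

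These windows held between 0 and 3 TAAT or ATTA matches each, with overlapping matches counted. The tasp-1 and W06H8.6 windows held 0, the windows of cdc-48.1, Y71H2AM.20 and eelo-2 held 2, and those of dcaf-13, rpl-15 and lsm-5 held 3. Of all 201 bp windows tiled along the arms, 83.5% held at least 1 match, so a match in a single window says little. The windows also ranged widely in base composition, from 24.4% GC at lsm-5 to 57.7% at W06H8.6.

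The arms held almost as many entries per Mb as the centres. There were 169 entries per Mb on the arms, over 45.0 Mb, and 173 per Mb in the centres, over 22.5 Mb, a ratio of 0.976 (95% interval 0.939 to 1.01). Intervals on shares and on these ratios are exact Clopper-Pearson intervals over entries, or over genes where genes are counted, and cover counting error only. The ratio was 1.00 in replicate 1 (0.972 to 1.03) and 0.943 in replicate 2 (0.916 to 0.970). Within 250 kb of the 8 boundaries there were 340 entries on the arm side and 361 on the centre side, with median signals of 16.5 and 16.4, or 170 and 180.5 entries per Mb.

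The chromosomes differed from each other in this ratio. On III the arms held 213 entries per Mb and the centre 195, a ratio of 1.09 (1.01 to 1.18), and on IV 191 and 180, a ratio of 1.06 (0.986 to 1.14). On II the arms held 147 per Mb and the centre 171, a ratio of 0.860 (0.791 to 0.936), and on V 139 and 155, a ratio of 0.892 (0.828 to 0.962). In both replicate lists the ratios of III and IV lay above 1 and those of II and V below 1, though not all beyond counting error. In replicate 1 they were 1.09 and 1.05 for III and IV and 0.944 and 0.929 for II and V. In replicate 2 they were 1.02 and 1.003 for III and IV and 0.882 and 0.873 for II and V. The interval included 1 for II in replicate 1 (0.886 to 1.01) and for III in replicate 2 (0.962 to 1.09). For IV it included 1 in both, at 0.997 to 1.11 in replicate 1 and 0.948 to 1.06 in replicate 2.

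**Figure D1:**
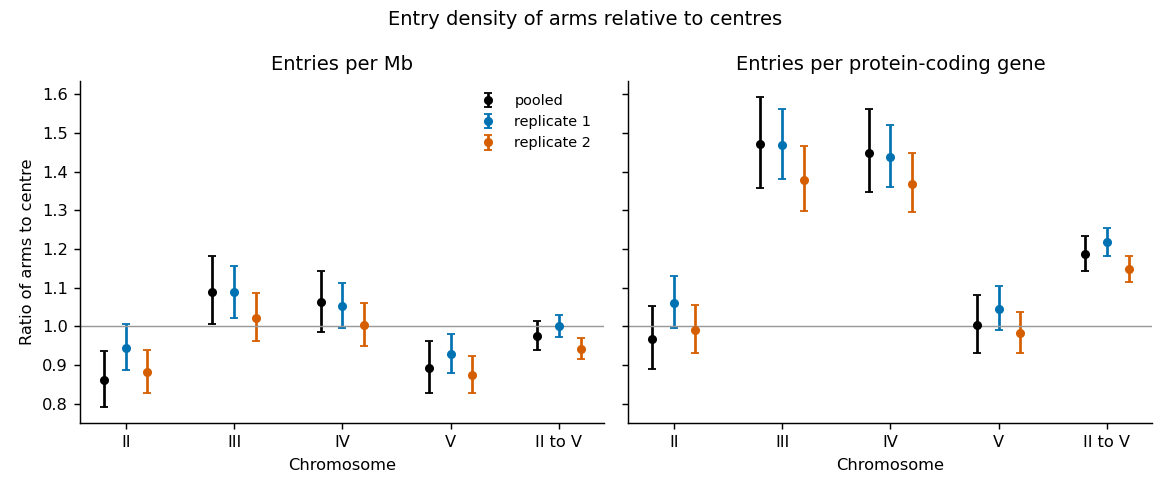
Ratio of entry density on arms to that in the centre for chromosomes II, III, IV and V and for all of them, per Mb (left panel) and per protein-coding gene (right panel), in the pooled list (black), replicate 1 (blue) and replicate 2 (orange). Bars are 95% intervals for counting error, and the ratio per gene lies between 1.37 and 1.47 for III and IV in all 3 lists, while II and V lie between 0.967 and 1.06.

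Counted per gene, the arms held more entries than the centres. Arms had 8930 protein-coding genes at 198 per Mb and centres 5434 at 242 per Mb. This gave 85.2 entries per 100 genes on the arms and 71.8 in the centres, a ratio of 1.19 (95% interval 1.14 to 1.24). The ratio was 1.22 in replicate 1 and 1.15 in replicate 2. Among the 1000 strongest entries it was 1.04 (0.914 to 1.19), an interval that includes 1. By chromosome it was above 1 on III (1.47, with 1.36 to 1.59) and on IV (1.45, with 1.35 to 1.56), while II (0.967, with 0.889 to 1.05) and V (1.004, with 0.931 to 1.08) lay near 1. The plot of arm to centre ratios shows the same split of chromosomes in each list. Among the 8 arms the extremes were the left arm of II, with 50.3 entries per 100 genes, and the right arm of IV, with 129.

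The left arm of II was the arm with the fewest entries. It held 632 entries, or 124 per Mb, against 170 per Mb on the right arm of the same chromosome and 171 in its centre. It fell below the centre of II in both replicate lists, at 0.854 times the centre density in replicate 1 and 0.770 times in replicate 2. The right arm of III was the densest in the pooled list, with 1021 entries or 222 per Mb, and in replicate 2, with 366 per Mb. In replicate 1 the right arm of IV was denser, at 368 per Mb against 354 on the right arm of III. In 5% bins of each chromosome, the 48 bins that lay wholly on arms ranged from 68.1 to 287 pooled entries per Mb around a median of 165. The 24 wholly central bins ranged from 142 to 222 around a median of 170, so the middle values were alike and the arm bins were the more spread. Across the 48 arm bins, Spearman's rho between the densities of the 2 replicates was 0.87, which is a description of bins that share a control and a genome.

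**Figure D2:**
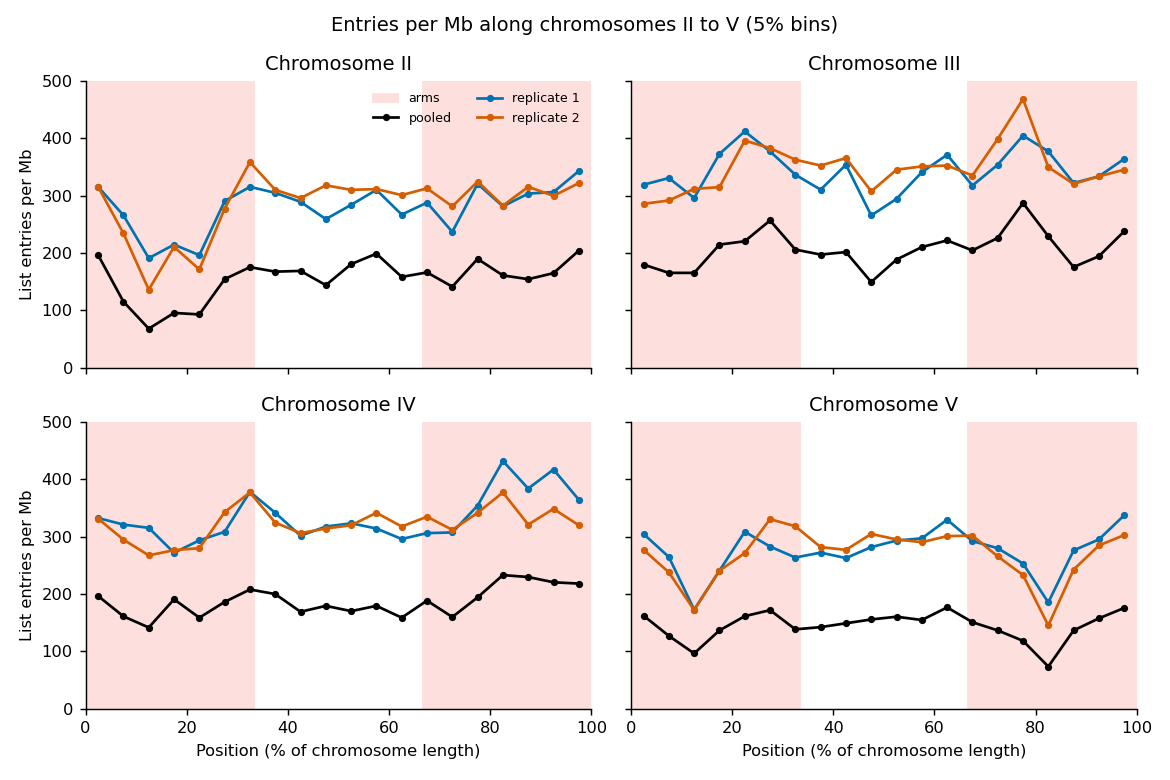
Entries per Mb in 5% bins along chromosomes II, III, IV and V, with position as a percentage of chromosome length and the arms shaded. Pooled (black), replicate 1 (blue) and replicate 2 (orange) densities dip together on the left arm of II, where the lowest bin holds 68.1 pooled entries per Mb, and on both arms of V.

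Some of the lowest bins held many genes of large families, and so did some bins near the median. The lowest bin, on II at 1527943 to 2291913, held 52 pooled entries or 68.1 per Mb, and its 217 protein-coding genes included 46 F-box and 53 MATH or BTB genes. These encode adaptor-like proteins of ubiquitin ligase complexes, among other roles. The next, on V at 16739345 to 17785553, held 73.6 entries per Mb and 237 genes, among them 73 chemoreceptor, 22 F-box and 19 C-type lectin genes. Next came 2 further bins of the left arm of II, with 92.9 and 95.6 entries per Mb. On the left arm of V, the bin at 2092419 to 3138627 held 96.5 entries per Mb and 113 chemoreceptor genes. This bin also contains a stretch of 239 kb without a pooled summit, in which 8.97% of 31-base words were unique, as described below. In the bins of II and V located here by coordinates, replicate 1 had 191, 185 and 173 entries per Mb and replicate 2 had 136, 145 and 172, against medians over arm bins of 309 and 301. Over the 48 arm bins, Spearman's rho between pooled entries per Mb and protein-coding genes per Mb was -0.60, as a description over bins. Near the arm median of 165 entries per Mb, the bin on III at 689191 to 1378380 held 165 per Mb and 36 F-box genes. The first bin of V held 162 per Mb, with 59 chemoreceptor and 26 nuclear hormone receptor genes. The densest bin, on III at 10337852 to 11027041, held 287 entries per Mb and 126 genes, of which 2 were F-box and 0 were chemoreceptor genes.

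Uniqueness of sequence was also measured. A 31-base word that occurs only once in the reference was counted as unique, and 88.9% of arm positions and 94.0% of central positions began such a word. Per Mb of unique positions the arms held 190 pooled entries and the centres 184. By this measure the pooled arms of II held 164 and its centre 179, and on V 157 and 165. In replicate 1 arms and centre were nearly equal, at 305 and 304 on II and 304 and 306 on V. In replicate 2 they were 303 and 324 on II and 291 and 312 on V. The shares of unique positions were 82.4%, 84.2% and 71.7% in the bins of II and V located above by coordinates and 94.8% in the densest bin. Over the 48 arm bins Spearman's rho between this share and pooled entries per Mb was 0.26, a weak relation given as a description. The longest stretch of an arm without a pooled summit lay on V at 2338706 to 2577557, spanned 239 kb and 53 protein-coding gene starts, and had 8.97% unique words. Replicate 1 had no summit there over 221 kb and replicate 2 over 235.4 kb. Whether uniqueness of sequence sets the density of entries elsewhere was not tested, and how the authors treated reads that map to several places is not stated.

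The tagged gene itself, ceh-62, lies on the right arm of II, at chrII:10805737-10808611, within a long stretch without summits. That stretch was 54.5 kb in replicate 1 and 64.7 kb in replicate 2, from 10770057 to 10834731, and in both lists this was the second longest on all arms. Here 99.5% of the words in the replicate 1 stretch and 97.1% in the replicate 2 stretch were unique. The pooled list had 1 entry within 20000 bp of the gene. The second gene named in the strain, unc-119, is a neuronal gene on the right arm of III and is mutated there. With 20000 bp either side it held 22 entries of replicate 1, 17 of replicate 2 and 12 pooled entries. These counts are 475, 367 and 259 per Mb, against 354, 366 and 222 per Mb over the whole right arm of III. Relative to its arm the locus was densest in replicate 1, at 22 entries, and no interval was computed for so small a window.

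Median signals of arms and centres were close. Signal is the authors' peak-caller value, given on an unstated scale, and it is compared only within a list. In the pooled list the median was 16.3 on arms (quartiles 14.6 and 19.1) and 16.4 in centres (14.6 and 19.3), a ratio of 0.997. In replicate 1 it was 8.67 on arms and 8.63 in centres, and in replicate 2 it was 8.04 on arms and 8.23 in centres. The intervals of the medians, from binomial order statistics over entries, overlapped in replicate 1 (8.62 to 8.72 on arms, 8.56 to 8.71 in centres) and in the pooled list (16.2 to 16.4 on arms, 16.3 to 16.5 in centres). In replicate 2 they did not overlap, at 7.99 to 8.10 on arms and 8.15 to 8.31 in centres, so only there was the arm median lower beyond counting error. Among the strongest entries the arm share lay below the arms' share of length in the pooled list and in replicate 2, and its interval included that share in replicate 1. Of the 1000 strongest pooled entries on II to V, 631 lay on arms, or 63.1% (95% interval 60.0 to 66.1), where the arms make up 66.7% of the sequence. Replicate 1 had 645 (64.5%, with 61.4 to 67.5) and replicate 2 had 590 (59.0%, with 55.9 to 62.1). Of all entries on II to V the arms held 66.1% in the pooled list, 66.7% in replicate 1 and 65.3% in replicate 2. The left arms held 266 of the 1000 strongest pooled entries and the right arms 365, against 3585 and 4027 of all pooled arm entries.

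The optimal list, which the authors derived with the irreproducible discovery rate, holds 50 peaks, and 14 of them lay on II to V. Of all pooled entries on II to V, 0.122% were on it. The arms held 10 of the 14, or 71.4% (95% interval 41.9 to 91.6), and the centres 4, an interval that includes the 66.7% of length. The optimal list on ce10 had 41 peaks on II to V, of which 22 lay on arms, or 53.7% (37.4 to 69.3). Of the 10, 8 lay on right arms and 2 on left arms, both on IV. Right arms held 4027 of all 7612 pooled arm entries. On II to V the optimal peaks are those of highest pooled signal, and these 10 are therefore also the 10 strongest arm entries, down to a signal of 42.7, and the next arm entry, at Y71H2AM.20, had 42.5.

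Most of the strongest arm entries lay upstream of a protein-coding start. They are described by the known role of the nearest gene, or of another gene near the summit or holding it in an intron. The choice of gene and the grouping were made after the values were seen. Signals of the 20 strongest ranged from 37.5 to 101 around a median of 42.6. Of these, 19 lay in a promoter window, from 1000 bp upstream to 200 bp downstream of a protein-coding start. Such windows held 25.2% of all arm summits. Among the 100 strongest entries of II to V they held 61.3% of arm summits and 55.3% of central ones. Right arms held 4027 of all 7612 arm entries and 33 of the 62 arm entries among the 100 strongest of II to V. Of the 20 strongest arm entries they held 14. By chromosome there were 4 of the 20 on II, 8 on III, 5 on IV and 3 on V. Their GC content averaged 38.4% within 100 bp of the summit, and TAATTA was present at 3 of the 20, the entries at cox-5A, F13A7.14 and cbp-1.

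The entry at cdc-48.1, a gene for a p97-type ATPase that unfolds ubiquitinated proteins, had the highest value with a pooled signal of 101, and with 58.1 in replicate 1 and 37.2 in replicate 2. Its summit lies 377 kb inside the arm boundary on II, and its window also takes in the snoRNA gene C06A1.9. Next came rpl-15, for a protein of the large ribosomal subunit, with 53.0 pooled, 18.1 in replicate 1 and 28.7 in replicate 2. The entry 126 bp upstream of Y17G9B.5, whose window also takes in the ribosomal gene rpl-20, had 44.2 pooled, 23.5 in replicate 1 and 21.7 in replicate 2. The 2 optimal peaks on left arms were these, each with a gene of the large ribosomal subunit in its window.

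Genes of 3 chromatin regulators lay beside strong entries of the right arms. The entry 147 bp upstream of set-16, for a histone H3 lysine 4 methyltransferase, also lay in the window of a second gene, drr-2. It had a pooled signal of 43.7, and 11.3 in replicate 1 and 29.4 in replicate 2. That at mes-2, the worm Enhancer of zeste homologue, lay 248 bp upstream and had 37.8 pooled, 15.6 in replicate 1 and 19.7 in replicate 2. The third, 458 bp upstream of cbp-1, for a CBP/p300-type histone acetyltransferase, had 37.5 pooled but no summit in replicate 1 within 150 bp, and a replicate 2 signal of 5.93 at rank 28496. The entry at tasp-1, a gene for a taspase-like protease, had 50.2 pooled, 11.6 in replicate 1 at rank 5285 and 42.8 in replicate 2 at rank 28. These 4 entries were high in the pooled list while replicate 1 ranked them at best at 1057, which was the rank at mes-2. This was not particular to them. Of the 20 strongest arm entries, replicate 1 ranked 6 beyond place 1000 and had no summit within 150 bp of 2. Replicate 2 ranked 5 of the 20 beyond place 1000.

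Genes for RNA processing lay beside 3 more. The entry 309 bp upstream of lsm-5, for an Sm-like protein of the splicing and RNA decay machinery, was the strongest on the right arm of V, with 41.8 pooled, 24.2 in replicate 1 and 17.5 in replicate 2. Another, 76 bp upstream of Y62E10A.23, lay in the windows of lsm-3 and of the Mediator subunit gene mdt-9 and had 39.0 pooled, 19.7 in replicate 1 and 16.0 in replicate 2. At mog-1, which encodes a DEAH-box helicase of splicing, 41.0 pooled came with 30.5 in replicate 1 at rank 22 and 7.48 in replicate 2 at rank 18110. The order of the replicates thus differed from entry to entry, with replicate 1 ranking mog-1 far above, and tasp-1 and set-16 far below, replicate 2. At eelo-2, the strongest on the right arm of IV, 44.1 pooled came with 23.9 in replicate 1 at rank 56 and 11.2 in replicate 2 at rank 5378.

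Genes of the respiratory chain lay beside 2 entries. Of these, cox-5A, for a subunit of cytochrome c oxidase, had 48.5 pooled, 13.6 in replicate 1 and 34.1 in replicate 2. The strongest entry of the left arm of III lay in an intron of cox-6B, another subunit gene of that enzyme, 122 bp upstream of Y71H2AM.20 and in the window of the complex I gene nduc-2, with 42.5 pooled, 19.7 in replicate 1 and 25.01 in replicate 2. The nuclear pore gene npp-18 had an entry 74 bp upstream, with 43.8 pooled, 17.9 in replicate 1 and 26.4 in replicate 2. These 3 entries lie on chromosome III.

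Of the 20, 3 had their summit over an exon of a non-coding gene. One, over W01D2.7 and 203 bp upstream of W01D2.3 on the right arm of II, had 46.8 pooled, 28.0 in replicate 1 and 19.0 in replicate 2. The entry over a tRNA gene, WBGene00023195, within lelo-2 on the left arm of III had 41.9 pooled, 24.97 in replicate 1 and 15.9 in replicate 2. It was the only one of the 20 outside a protein-coding promoter window, and 75.6% of its words were unique. The strongest entry on the left arm of V, over the non-coding gene W06H8.13, had 37.5 pooled and 33.2 in replicate 2, and replicate 1 had no summit within 150 bp. The strongest on the left arm of II, in the coding exon of dcaf-13, was weaker, at 35.8 pooled, 23.7 in replicate 1 and 10.3 in replicate 2. It came in place 30 of all arm entries, and the left arm of II had the lowest maximum of the 8 arms. Also among the 20 strongest were Y54G11A.2 on the right arm of II, F13A7.14 on the right arm of V and vamp-7, a SNARE gene of vesicle fusion, on the left arm of IV. In that order their pooled signals were 42.7, 38.5 and 38.5, replicate 1 gave 21.7, 15.5 and 12.4, and replicate 2 gave 21.4, 18.4 and 18.3.

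**Figure D3:**
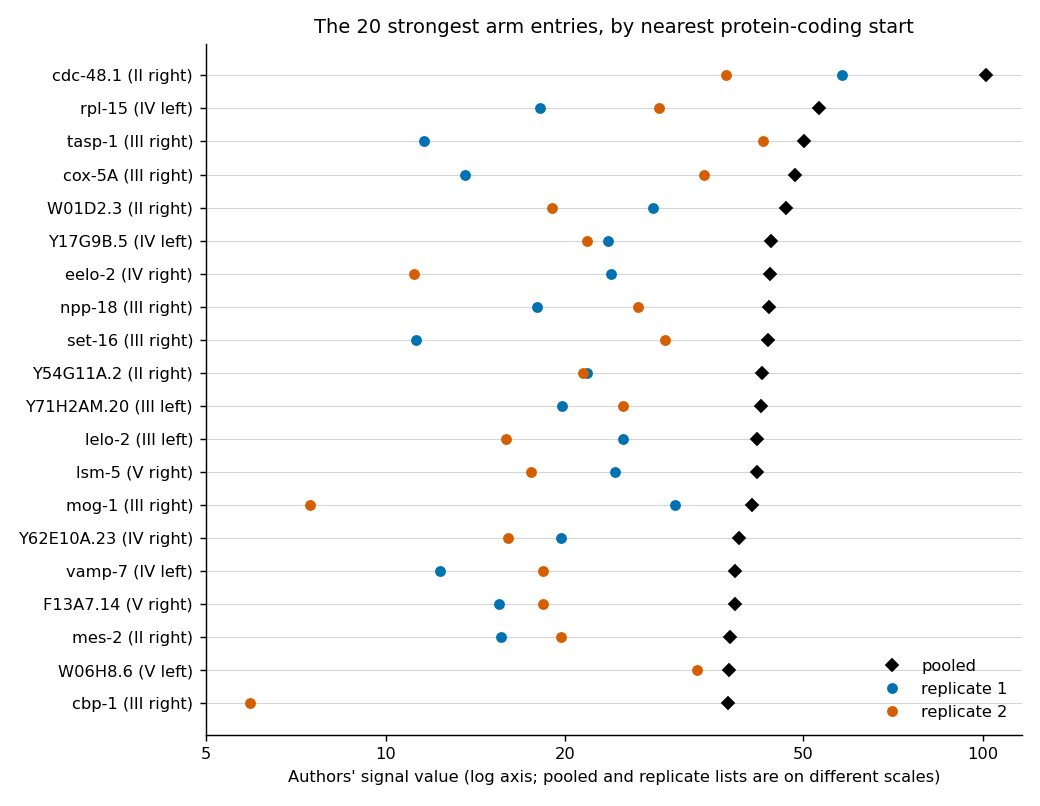
The authors' signal (log axis) of the 20 strongest arm entries in the pooled list (black diamonds), replicate 1 (blue) and replicate 2 (orange), each named by the nearest protein-coding start with its chromosome and arm. Pooled signals run from 37.5 to 101, W06H8.6 and cbp-1 have no replicate 1 summit within 150 bp, and mog-1 shows 30.5 in replicate 1 and 7.48 in replicate 2.

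Arm entries were found in both replicates about as often as central ones. A pooled entry counted as found in a replicate when that list had a summit within 150 bp. Of the 7612 arm entries, 2230 were found in both replicates, or 29.3% (95% interval 28.3 to 30.3), and of the 3899 central entries 1119, or 28.7% (27.3 to 30.2). Neither replicate had a summit near 626 arm entries (8.22%) and 333 central ones (8.54%). Among the 1000 strongest, 461 of 631 arm entries (73.1%) and 262 of 369 central entries (71.0%) were found in both. The pooled list was made from the same alignments, so these shares are no independent support. Matched directly, 2426 of 13730 arm entries of replicate 1 had a replicate 2 summit within 150 bp (17.7%), and Spearman's rho of their signals was 0.09. In the centres 1227 of 6859 did so (17.9%), with a rho of 0.10. Of the 645 strongest arm entries of replicate 1, 29 matched one of the 1000 strongest of replicate 2, or 4.50% (3.03 to 6.39). In the centres 15 of 355 did, or 4.23% (2.38 to 6.87). Some summits of lists this dense would fall within 150 bp of each other by position alone, and that share was not computed.

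A smaller share of arm summits than of central summits lay in promoter windows, and a larger share in introns, which also cover more of the arms. Promoter windows held 1915 arm summits, or 25.2% (95% interval 24.2 to 26.1), and cover 21.4% of arm positions. In the centres they held 1282, or 32.9% (31.4 to 34.4), and cover 25.5%. Relative to position the excess was 1.18 times on arms and 1.29 times in centres. In the replicate lists it was 1.10 on arms and 1.17 in centres for replicate 1, and 1.15 on arms and 1.18 in centres for replicate 2. By chromosome the arm share was lowest on IV, at 19.4%, and highest on V, at 29.7%.

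The promoter share was larger among stronger entries. On arms it was 35.5% (31.8 to 39.4) among the 1000 strongest pooled entries of II to V and 61.3% (48.1 to 73.4) among the 100 strongest, of which 62 were arm entries. In the centres it was 42.0% (36.9 to 47.2) and 55.3% (38.3 to 71.4). The intervals of arms and centres overlapped among the 1000 strongest and among the 100 strongest. Relative to positions the share among the 1000 strongest was 1.66 times on arms and 1.64 times in centres. In replicate 2 the arm share among its own 100 strongest was 59.6%, and in replicate 1 it was 34.9%.

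**Figure D4:**
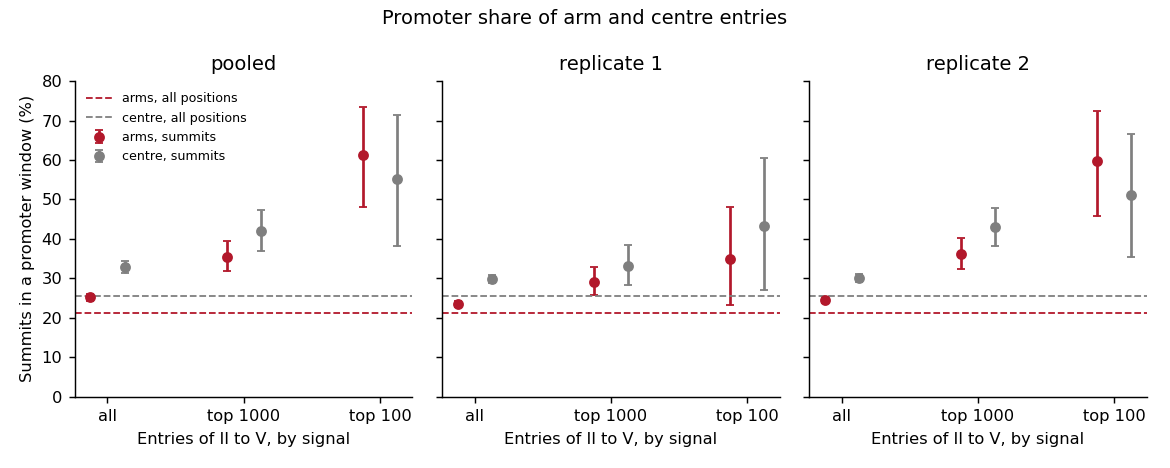
Share of summits in a promoter window (%) for all entries of II to V, the 1000 strongest and the 100 strongest, on arms (red) and in centres (grey), with 95% intervals for counting error and dashed lines for the share of all positions. In the pooled list the arm share is 25.2%, 35.5% and 61.3% in that order, while in replicate 1 it reaches only 34.9%.

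By annotation, 38.3% of arm summits lay in introns and 39.98% in intergenic sequence, which make up 34.4% and 34.8% of arm positions. In the centres 29.3% lay in introns and 39.7% between genes, which make up 26.7% and 33.7% of central positions. Relative to positions the intron share was thus alike, at 1.12 times on arms and 1.10 times in centres. Coding exons held 12.7% of arm summits (11.9 to 13.4) but 22.9% of arm positions, a ratio of 0.553, and in the centres 19.6% of summits and 30.8% of positions, a ratio of 0.636. In the replicate lists the coding exon ratio was 0.653 on arms and 0.689 in centres for replicate 1, and 0.760 on arms and 0.759 in centres for replicate 2. Untranslated exons held more summits than their length would give, with 6.88% of arm summits on 4.39% of positions, and 9.08% on 5.78% in the centres.

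Arm summits were poorer in GC and richer in soft-masked bases than the arms at large. Within 100 bp of the summit GC averaged 32.1% (SD 6.58 over 7612 entries), against 35.6% over 201 bp windows tiled along the arms. In the centres it was 32.9% at summits and 35.1% over tiled windows. Bases that RefSeq soft-masks made up 48.8% at arm summits, against 40.4% along the arms, and 34.0% at central summits, against 28.1% along the centres. Nevertheless the windows at arm summits were 98.6% unique by 31-base words, against 88.9% along the arms. The motif TAATTA, which is its own reverse complement, was present at 10.4% of arm summits (95% interval 9.77 to 11.2), against 8.61% of windows along the arms. In the centres it was present at 13.0% of summits, against 10.2% of windows. TAAT or ATTA occurred 1.39 times per 100 bp at arm summits and 1.22 times along the arms, and 1.52 times at central summits and 1.36 times along the centres. GC content differs between the same windows, and its part in these values was not tested.

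Of the 5 largest gene families of the arms, 3 had a lower share of genes with a summit at the promoter than all arm genes in every list, and 2 did not. The 15 protein families, defined by symbol prefix, were read against all protein-coding genes, of which 22.5% on the arms (2013 of 8930) and 25.4% in the centres (1381 of 5434) had a pooled summit in the promoter window. The 5 families with the most arm genes were chemoreceptors, F-box, C-type lectin, nuclear hormone receptor, and MATH or BTB genes. Together they have 1625 genes on arms, or 79.7% of their genes on II to V, and 238 of them had a summit, or 14.6% (95% interval 13.0 to 16.5). Protein-coding genes of the arms outside the 15 families had one at 24.4%.

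Chemoreceptor genes, which encode G protein-coupled receptors used in the chemical senses, numbered 940 on arms. Of these 133 had a summit, or 14.1% (12.0 to 16.5), and in the centres 45 of 302 did, or 14.9%. Replicate 1 gave 27.6% on arms and replicate 2 gave 25.3%, below the 35.8% and 36.6% of all arm genes. F-box genes had 35 of 282 on arms, or 12.4% (8.80 to 16.8), and 0 of 7 in the centres. Their arm share was 27.0% in replicate 1 and 22.3% in replicate 2. C-type lectin genes, whose products bind sugars and include many induced by pathogens, had 19 of 166 on arms, or 11.4% (7.03 to 17.3), and 4 of 35 in the centres. Their arm share was 21.7% in replicate 1 and 24.7% in replicate 2. MATH or BTB genes had 11 of 77 on arms, or 14.3% (7.35 to 24.1), an interval that includes the 22.5% of all arm genes, and 5 of 8 in the centres. In replicate 1 the arm share of MATH or BTB genes was 36.4%, near that of all arm genes, and in replicate 2 it was 24.7%.

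Nuclear hormone receptor genes had a summit at 40 of 160 on arms, or 25% (18.5 to 32.4), and at 38.1% in replicate 1 and 38.8% in replicate 2, each near the share of all arm genes. In the centres 18 of 63 had a summit, or 28.6%. Their strongest summit, 63 bp upstream of nhr-227, had a pooled signal of 25.1. The strongest at a chemoreceptor gene lay 3 bp downstream of the start of srz-72 with 29.8, at an F-box gene 248 bp upstream of fbxb-72 with 29.8, at a lectin gene 133 bp downstream of the start of clec-8 with 29.5, and at a MATH gene 84 bp downstream of the start of math-9 with 19.8. None of these was among the 100 strongest arm entries.

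On all 8 arms the share of genes with a summit was lower in these families than in the other protein-coding genes, in the pooled list and in each replicate list. On the left arm of II it was 10.4% of 289 family genes and 17.7% of 968 others, on the left arm of V 16.9% of 451 and 21.9% of 1103, and on the right arm of V 14.3% of 512 and 17.9% of 1130. On the right arm of III, where the families are scarce, it was 25% of 20 and 35.0% of 798. Where at least 95% of the words in the promoter window were unique, 16.8% of 1122 family genes (14.6 to 19.1) had a summit, against 28.4% of 5232 genes outside the 15 families (27.2 to 29.7).

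**Figure D5:**
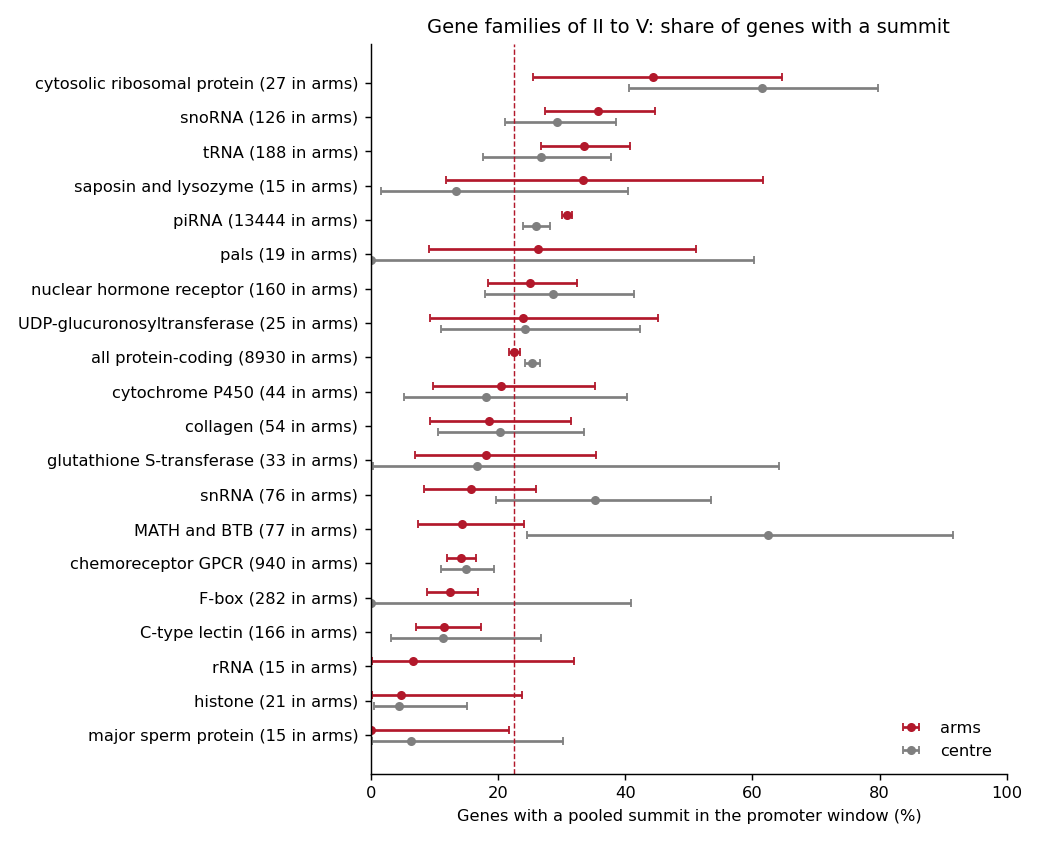
Share of genes with a pooled summit in the promoter window (%) for each family or gene class with 15 or more arm genes, on arms (red, above) and in centres (grey, below), with 95% intervals for counting error. The dashed line is the 22.5% of all protein-coding arm genes, and C-type lectin, F-box and chemoreceptor genes lie left of it while ribosomal protein, tRNA and snoRNA genes lie right of it.

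The intervals of the following smaller families all included the 22.5% of all arm genes. Cytochrome P450 genes, which oxidize foreign compounds, had a summit at 9 of 44 on arms and 4 of 22 in the centres. UDP-glucuronosyltransferase genes had 6 of 25 and 8 of 33, glutathione S-transferase genes 6 of 33 and 1 of 6, and collagen genes, whose products build the cuticle, 10 of 54 and 11 of 54, with the arm count given before the central count. Saposin and lysozyme genes had 5 of 15 on arms and 2 of 15 in the centres. Among the pals genes, some of which act in the response to intracellular pathogens, 5 of 19 had one on arms and 0 of 4 in the centres. With so few genes the intervals are wide, such as 9.15% to 51.2% for pals genes on arms.

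In 4 further classes the pooled list had a summit at 0 or 1 arm gene, and for 3 of them the interval still included the 22.5% of all arm genes. Major sperm protein genes had 0 of 15 on arms, which allows a share of up to 21.8% by the exact interval, and 1 of 16 in the centres. The replicate lists had 2 and 4 of these 15. SKP1-related genes had 0 of 13 on arms (0 to 24.7%), with 1 of 13 in replicate 1 and 4 of 13 in replicate 2, and 1 of 2 in the centres. Histone genes had 1 of 21 on arms (0.120% to 23.8%), the summit 164 bp upstream of his-69, and 2 of 45 in the centres. Neither replicate had a summit within 150 bp of the one at his-69. The share of unique words in these windows was 64.0% for the sperm protein genes on arms and 37.4% for the histone genes, and whether reads there could be assigned to 1 gene was not tested. The rRNA genes on II to V, 15 genes, all lie on the right arm of V. In the pooled list 1 of them (0.169% to 31.9%), rrn-4.3, had a summit in its window, with a pooled signal of 22.1, 15.2 in replicate 1 and no replicate 2 summit within 150 bp. The windows of these rRNA genes were 19.8% unique.

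Ribosomal protein, tRNA and snoRNA genes of the arms had summits at shares whose intervals lay above the 22.5% of protein-coding genes in the pooled list. In replicate 1 all 3 lay near the 35.8% of protein-coding arm genes, and in replicate 2 that background was 36.6%. Cytosolic ribosomal protein genes had a summit at 12 of 27 on arms, or 44.4% (25.5 to 64.7), and at 16 of 26 in the centres, or 61.5% (40.6 to 79.8). On arms the share was 37.0% in replicate 1 and 81.5% in replicate 2, so the replicates differed widely. Genes for tRNA had 63 of 188 on arms, or 33.5% (26.8 to 40.7), and 22 of 82 in the centres, or 26.8%. Their arm share was 40.4% in replicate 1 and 54.8% in replicate 2. Genes for snoRNA, which guide modification of other RNAs, had 45 of 126 on arms, or 35.7% (27.4 to 44.7), and 33 of 113 in the centres, or 29.2%. Their arm share was 38.1% in replicate 1 and 48.4% in replicate 2. Genes for snRNA had 12 of 76 on arms, or 15.8%, and 12 of 34 in the centres, or 35.3%, with 75.1% unique words in the arm windows. Many of these genes are short and share a window with a protein-coding gene or with each other, so their counts are not independent.

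Chromosome IV carries most genes for piRNAs, the small RNAs that silence transposons in the germline. Of 14714 piRNA genes on IV, 13243 lay on its arms. On II to V a pooled summit fell in the window of 30.8% of arm piRNA genes and of 26.0% of central ones (431 of 1659). Among protein-coding arm genes the share was 22.5%, and the share for windows placed anywhere on these arms was not computed. The piRNA windows overlap heavily, and the 4142 arm piRNA genes with a summit shared 939 summits. The 6 arm bins of IV with 500 or more piRNA genes held a median of 219.5 pooled entries per Mb (186 to 233), and the other 6 held a median of 161 (142 to 197). In replicate 1 the medians were 374 and 312, and in replicate 2 they were 342 and 288. Of the 6 piRNA-rich bins, 5 lie on the right arm, so the arm and the piRNA genes cannot be told apart here. Medians of protein-coding genes were 161 per Mb in the rich bins and 166 in the others, but the 3 rich bins with most entries, at 233, 229.8 and 221 per Mb, had 144, 106 and 91.5 genes per Mb. The bins rich in piRNA genes thus had the higher median in all 3 lists, as a description of 12 bins of 1 chromosome.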

How the data were processed

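Peaks and background were called by the authors on chromatin of 2 biological replicates, and the deposited lists give a signal value per entry, per the file headers' narrowPeak layout and the deposited file inventories. By these inventories the pooled list was called from both alignments with 1 control, and the optimal list was derived from the pooled and replicate lists. Aligner, caller, thresholds and read numbers: not given in the sources used here. Depth is therefore unknown.

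Summits were placed by column 2 plus column 10. Lengths were those of WBcel235, within which every entry of II to V ended, and gene models came from Ensembl release 115. Genes were placed by their start. A summit in several annotation classes was counted as coding exon, untranslated exon, non-coding exon or pseudogene, intron and intergenic, in that order. Matching used 150 bp, and 31-base words were compared over the nuclear chromosomes on both strands. Named entries were the 20 strongest on arms, the optimal peaks on arms, the strongest of each arm and the strongest at each family. Members, families and comparisons were chosen with earlier results of these data known. Alternatives covered other arm boundaries, windows, list sizes, the ce10 lists and single replicates. Functions were tested on simulated data. Python 3.11.15, pandas 2.3.3 and scipy 1.17.1 were used.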

Additional observations from a re-analysis of the deposited data

How the results depend on the processing

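Of 45 values recomputed under alternative settings, 27 lay inside the 95% interval of the reported value and 18 outside it, and the cause of these moves was not tested. Among the 1000 strongest entries the arm to centre ratio was 0.855 per Mb and 1.04 per gene, the arm promoter share 35.5% and the share of arm entries found in both replicates 73.1%. The ratio was 1.03 per Mb of unique 31-base words and 1.26 per gene without chromosome II, both chosen after the data were seen. With arms as the outer 25% at each end the promoter share was 24.0%, and with the outer 40% at each end it was 26.4%. It was 15.2% for windows of 500 bp upstream to 100 bp downstream and 41.5% for 2000 bp upstream to 500 bp downstream. The signal ratio was 1.004 in promoter windows alone. Replicate support was 13.5% within 50 bp and 40.7% within 300 bp. TAATTA at arm summits relative to tiled windows was 1.21 and became 1.30 within 50 bp.

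With a single replicate list in place of the pooled list, ratios ran from 0.943 to 1.001 per Mb and from 1.15 to 1.22 per gene, the promoter share from 23.6% to 24.6%, and the signal ratio from 0.977 to 1.005. The share of the 5 large families relative to the other protein-coding arm genes was 0.603 in the pooled list and ran from 0.668 to 0.755, a setting added after the data were seen. The optimal arm share of 71.4% was 57.1% and 78.6% with the narrower and wider arms, 53.7% in ce10 and 62% for the 100 strongest entries. No paired analysis was possible because there is only 1 group. Depth is unknown, so no limit of detection can be given.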
